A study of Mus musculus with 12 samples.

Results

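The CXC chemokines are small secreted proteins whose first cysteines are separated by 1 other residue, and they guide leukocytes that carry the matching receptors. Ligands with a glutamate-leucine-arginine motif, here Cxcl1, Cxcl2, Cxcl3 and Cxcl5, bind Cxcr2 and draw neutrophils, and their genes are classical targets of NF-kB. Cxcl9, Cxcl10 and Cxcl11 bind Cxcr3 on activated T cells and NK cells and are known for their induction by interferons, while Cxcl12, Cxcl14 and Cxcl16 are often called homeostatic, with Cxcr4 as the receptor of Cxcl12 and Cxcr6 as that of Cxcl16.

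Transcripts of 10 CXC chemokine genes were examined in M2-like bone marrow-derived macrophages (BMDM). They were the rows whose gene symbols are Cxcl1, Cxcl2, Cxcl3, Cxcl5, Cxcl9, Cxcl10, Cxcl11, Cxcl12, Cxcl14 and Cxcl16, out of 56748 genes in the count table. The rule that picks them uses gene symbols alone, but the 10 members were chosen with earlier results of these data known. At least 1 count was found for all 10 genes, and 8 passed the filter on low counts, the exceptions being Cxcl3 and Cxcl11.

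The cells were grown from marrow of wild-type C57BL/6J mice with 20 ng/mL M-CSF and polarized for 48 hours with 10 ng/mL IL4, an agent that all 4 conditions share. The methods text describes the mice bought for the animal experiments as female and 10 to 12 weeks old at purchase. It does not repeat sex or age for the marrow donors, and the labels give neither. During the next 72 hours the untreated control received medium alone, the rIFNβ condition received recombinant IFNβ at 1500 pg/mL, and the Ifnb1eGFP supernatant condition received medium of YUMM5.2 Ifnb1eGFP cells diluted to the same IFNβ concentration. YUMM5.2 is a mouse melanoma line, transduced here with a lentiviral vector in which a tetracycline-responsive promoter drives Ifnb1 and eGFP, and the donor cells had been kept for 72 hours in 1 µg/mL doxycycline. The eGFP supernatant condition received medium of YUMM5.2 cells with eGFP alone, exposed to doxycycline and diluted in the same way. Both supernatants thus hold tumor cell products and any doxycycline carried over. Whether products other than IFNβ differ between the donor lines was not measured. Each condition had 3 libraries, described by the submitters as 3 mice per condition.

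Libraries held between 31526034 and 45348457 counts. The summed level of 10 macrophage markers was 14753 to 19125 CPM per library without IFNβ (counts scaled to a common library total). With IFNβ it was 10254 to 11098 CPM. The 8 IL4 response markers summed to between 749 and 1032 CPM, most of it Mrc1, while Arg1 was at most 0.877 CPM. The 9 lymphocyte markers summed to at most 10.0 CPM, the 6 dendritic cell markers to at most 1.71 CPM and the 5 mast cell and basophil markers to at most 1.24 CPM. The 9 stromal and endothelial markers summed to between 32.6 and 87.1 CPM. The 7 melanoma markers summed to between 88.1 and 168 CPM, nearly all of it Mitf (87.3 to 167 CPM), while Tyrp1 had no count in any library and 3 more (Tyr, Dct and Sox10) stayed at 3 counts or fewer per library. The 9 neutrophil markers, a cell type that Cxcr2 ligands attract, summed to between 26.2 and 54.4 CPM, most of it Csf3r, and 4 of them never exceeded 3 counts. In bulk RNA, a smaller number of cells of one type and less RNA per cell cannot be told apart.

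The promoters of the members with the clearest sequence features are shown first, because interferon-activated factors and NF-kB act on such sites. RefSeq promoter entries (assembly GRCm38.p6, 250 bases before to 50 after each start) were found for 7 of the 10 genes, and Cxcl5, Cxcl11 and Cxcl16 had none. Both strands were searched for GAAA, any 2 bases and GAAA (an interferon-stimulated response element, bound by complexes of STAT and IRF proteins), for TTCNNNGAA with N as any base (a STAT dimer site) and for GGG, any 2 bases, TT, any base and CC (an NF-kB site). Among 32851 promoters of this length, 3.44% held the first, 8.30% the second and 4.79% the third. The sequences below run 5′ to 3′ on the gene's strand and end 1 base before the start, and capitals mark the matches.
Cxcl10, chr5:92348890-92349139, minus strand: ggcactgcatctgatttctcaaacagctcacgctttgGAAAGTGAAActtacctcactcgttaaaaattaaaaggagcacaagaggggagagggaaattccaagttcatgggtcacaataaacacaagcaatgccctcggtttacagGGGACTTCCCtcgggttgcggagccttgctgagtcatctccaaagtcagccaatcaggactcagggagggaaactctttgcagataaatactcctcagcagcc
Cxcl14, chr13:56296552-56296801, minus strand: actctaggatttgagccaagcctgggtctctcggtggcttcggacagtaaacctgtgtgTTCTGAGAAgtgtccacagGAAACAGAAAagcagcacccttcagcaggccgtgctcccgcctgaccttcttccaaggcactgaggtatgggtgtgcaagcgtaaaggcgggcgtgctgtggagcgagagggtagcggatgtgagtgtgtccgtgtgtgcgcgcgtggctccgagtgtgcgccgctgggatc
Cxcl9, chr5:92328080-92328229, minus strand: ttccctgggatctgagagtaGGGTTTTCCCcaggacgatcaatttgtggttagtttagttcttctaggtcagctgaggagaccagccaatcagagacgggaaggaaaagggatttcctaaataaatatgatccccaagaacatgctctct
Cxcl1, chr5:90891095-90891244, plus strand: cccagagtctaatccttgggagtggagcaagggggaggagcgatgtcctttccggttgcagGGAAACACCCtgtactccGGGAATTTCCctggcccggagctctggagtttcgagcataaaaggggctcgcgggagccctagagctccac
Cxcl2, chr5:90903749-90903898, plus strand: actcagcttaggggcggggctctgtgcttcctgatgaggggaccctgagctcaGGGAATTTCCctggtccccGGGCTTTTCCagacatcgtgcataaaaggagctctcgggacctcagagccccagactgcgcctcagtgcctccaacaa
Cxcl3, chr5:90785951-90786100, plus strand: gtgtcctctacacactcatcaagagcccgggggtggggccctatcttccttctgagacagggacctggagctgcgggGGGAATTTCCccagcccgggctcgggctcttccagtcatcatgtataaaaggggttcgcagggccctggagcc

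The promoter of Cxcl10 held both an interferon-stimulated response element, GAAAGTGAAA at -213 to -204, and NF-kB site letters, GGGACTTCCC at -103 to -94, counting backwards from the start. Of the 7 promoters, that of Cxcl14 was the only other with the interferon-stimulated letters, GAAACAGAAA at -172 to -163, and the only one with the STAT letters, TTCTGAGAA at -191 to -183. The NF-kB letters GGGAATTTCC were found in Cxcl1 at -71 to -62, in Cxcl2 at -97 to -88 and in Cxcl3 at -73 to -64, and Cxcl1 and Cxcl2 each held a further match. In Cxcl9 the match was GGGTTTTCCC at -130 to -121. Between the first base of this window and base 50 after the start, the Cxcl12 promoter held none of these letters, which says only that they are not in this window. These matches describe letters, and no binding was measured here.

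The genes fall into 2 clusters on chromosome 5 and 3 single sites (positions of GRCm39). On the plus strand lie Cxcl5 (chr5:90907186-90909483), Cxcl3 (chr5:90933962-90937459), Cxcl1 (chr5:91039094-91040974) and Cxcl2 (chr5:91051730-91053797), in a stretch of 147 kb that also holds Ppbp, Pf4 and Cxcl15. The minus-strand cluster spans 44.1 kb and holds Cxcl9 (chr5:92469206-92475945), Cxcl10 (chr5:92494497-92496748) and Cxcl11 (chr5:92507403-92513344), and 1415 kb separate the clusters. Cxcl12 lies on the plus strand of chromosome 6 (chr6:117144945-117158328), Cxcl14 on the minus strand of chromosome 13 (chr13:56436352-56444603) and Cxcl16 on the minus strand of chromosome 11 (chr11:70344517-70352620).

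The Ifnb1eGFP and the eGFP supernatant differ in IFNβ and in the donor line. Between them Cxcl1, Cxcl5, Cxcl10, Cxcl12 and Cxcl16 rose and Cxcl14 fell at an adjusted p of at most 0.05 (quasi-likelihood test of edgeR, Benjamini-Hochberg adjusted over the 15033 genes tested). These are 6 of the 7 tested members that do not include Cxcl9, which passed the filter only through the libraries with IFNβ, had to differ for that reason and is given by its counts. Of all genes tested, 55.1% were called in this comparison, 30.1% higher and 25% lower. The study's own thresholds, which ask for a log2 change of 2 or more in size and for an adjusted p up to 0.01, were passed by 3 of the 7, Cxcl5, Cxcl10 and Cxcl12, against 5.39% of all genes. With Cxcl9 counted they were passed by 4 of 8, but by 1 without eGFP supernatant replicate 2 and by 2 without Ifnb1eGFP supernatant replicate 1. The median log2 fold change was 1.71 over the 7 genes and 0.03 over all genes tested. With recombinant IFNβ against untreated control, Cxcl10, Cxcl12 and Cxcl16 rose and Cxcl14 fell, 4 of the 7, against 55.3% of all genes called, 30.7% higher and 24.6% lower, and the median log2 fold change was 0.91 against 0.04 over all genes. Cxcl10 alone of the 7 passed the study's thresholds there, against 5.77% of all genes. The libraries of the compared conditions did not overlap for 59% of all genes between the supernatants and for 66.1% with rIFNβ.

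**Figure D1:**
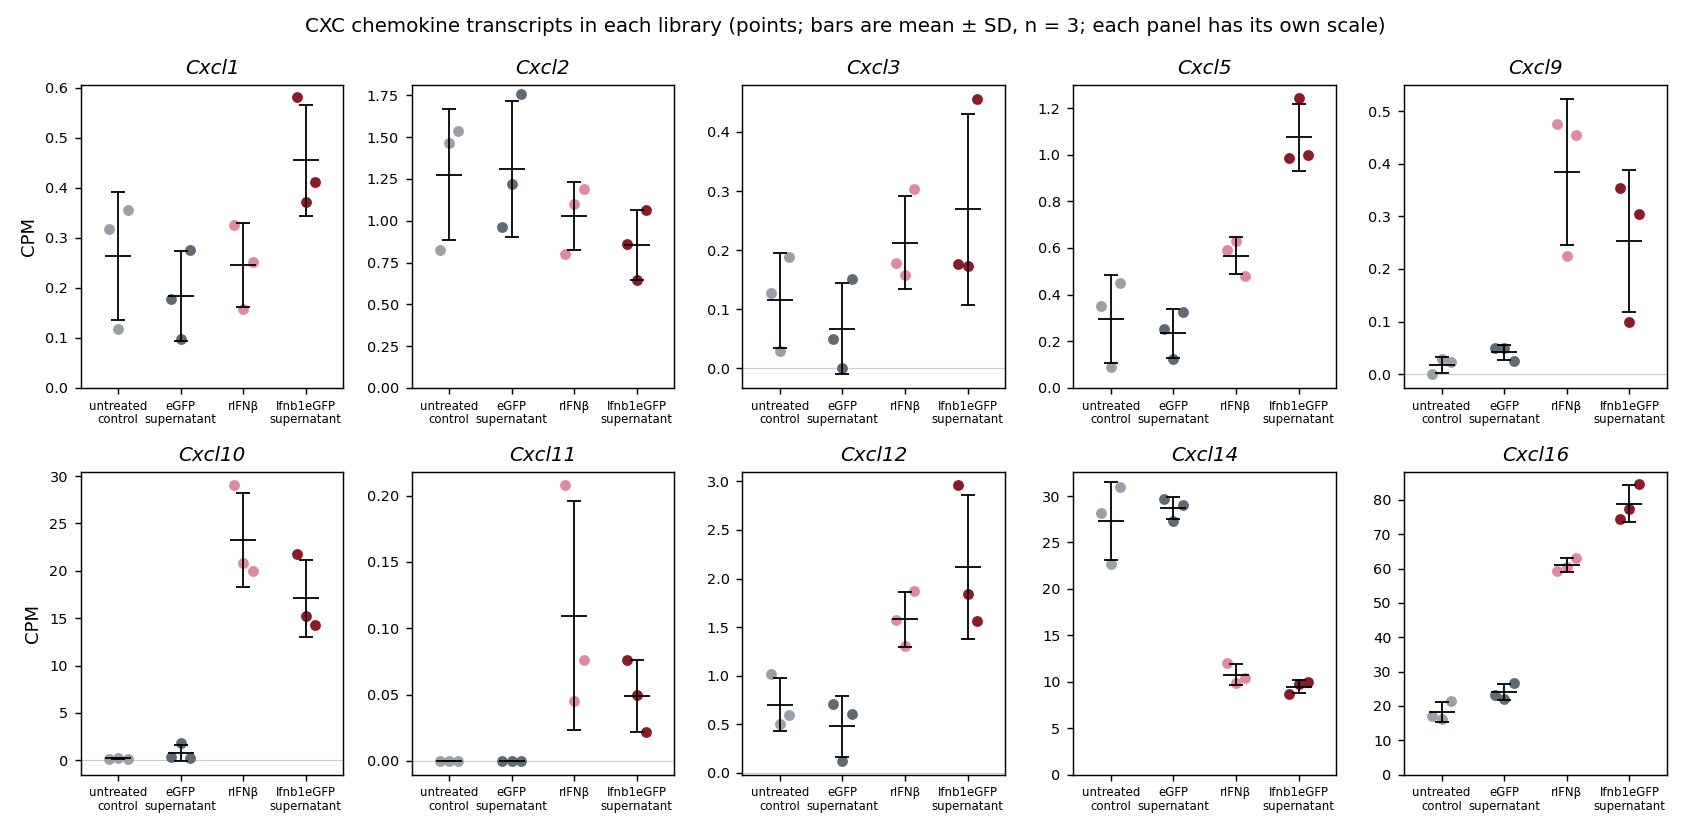
CPM of the 10 CXC chemokine genes in each of the 12 libraries (points, with the mean ± SD of 3 libraries per condition), each panel on its own axis. All 6 libraries with IFNβ lie above the 6 without for Cxcl5, Cxcl9, Cxcl10, Cxcl11, Cxcl12 and Cxcl16 and below them for Cxcl14, while the conditions overlap for Cxcl2. Cxcl9 passed the filter only through the libraries with IFNβ, and Cxcl11 had 18 counts in all. The share of all genes split in this way was not counted. Within the single comparisons, 59% of all genes tested did not overlap between the supernatants and 66.1% with rIFNβ.

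Cxcl10, the Cxcr3 ligand named for its induction by interferon γ, had the largest change of the 8 tested members in both comparisons. Its level was 0.127, 0.293 and 0.189 CPM in the untreated control libraries and 0.328, 1.78 and 0.276 CPM with eGFP supernatant. It was 21.8, 15.3 and 14.3 CPM in Ifnb1eGFP supernatant and 29.0, 20.8 and 20.0 CPM with rIFNβ. The groups were far apart, with 4828 counts over the 6 libraries with IFNβ and 119 over the 6 without, and eGFP supernatant replicate 2 stood above the other libraries without IFNβ. The difference in level was 21.2-fold between the supernatants (log2 fold change 4.41 ± 0.45, SE, adjusted p = 7.46e-06) and 112-fold between rIFNβ and untreated control (log2 fold change 6.81 ± 0.57, adjusted p = 1.17e-06). Without eGFP supernatant replicate 2, the log2 fold change between the supernatants was 5.81. That library also had the highest level without IFNβ of Usp18 (29.8 CPM, against 3.55 to 7.35 CPM in the other 5 such libraries), which encodes a feedback inhibitor of interferon signalling. Its part in the Cxcl10 result beyond the value without it was not tested.

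The other Cxcr3 ligands were scarce. Cxcl9 had 0, 1 and 1 counts in the untreated control and 2, 2 and 1 with eGFP supernatant, against 14, 4 and 14 with Ifnb1eGFP supernatant and 16, 10 and 18 with rIFNβ. No library with IFNβ was as low as any without. The level of Cxcl9 was at least 3.38-fold higher with Ifnb1eGFP than with eGFP supernatant and at least 4.54-fold higher with rIFNβ than in the untreated control, when the groups without IFNβ are set at a floor of 3 counts per library. Cxcl11 had no count in any of the 6 libraries without IFNβ, 3, 2 and 1 counts with Ifnb1eGFP supernatant and 7, 2 and 3 with rIFNβ. The 18 counts of Cxcl11 were thus all in libraries with IFNβ, but most of those libraries were at or under 3 counts, so no fold is given. The gene was not tested in the filtered fit, and in the fit with no filter its adjusted p was 0.0178 with rIFNβ and 0.0818 between the supernatants. RefSeq lists the mouse Cxcl11 gene as a transcribed pseudogene in the same table in which the other 9 members are protein-coding. Cxcl10 and Cxcl11 lie inside Art3 on the opposite strand, and Art3 itself had at most 10 counts in a library.

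Cxcl16, a ligand made as a transmembrane protein that also acts as a scavenger receptor and is released by ADAM proteases, was the most abundant member by CPM in the libraries with IFNβ. It was at 17.0, 16.3 and 21.5 CPM in the untreated control and at 23.3, 22.1 and 26.8 CPM with eGFP supernatant. It reached 74.4, 77.5 and 84.8 CPM in Ifnb1eGFP supernatant and 59.3, 60.5 and 63.1 CPM with rIFNβ. Libraries with and without IFNβ did not overlap, and the rise was of nearly the same size from both sources, 3.28-fold between the supernatants (log2 fold change 1.71 ± 0.10, adjusted p = 8.62e-08) and 3.33-fold with rIFNβ (1.74 ± 0.10, adjusted p = 8.06e-08). The difference between these log2 changes was -0.02, with a 95% interval from -0.34 to 0.29. For Cxcl16, 91.7% of values were not whole numbers, so part of its reads were shared out with other genes by the authors' counting. Cxcl16 overlaps Med11 and Zmynd15 on the opposite strand. The decimals of Cxcl16 and Zmynd15 made up whole numbers in each library, as with 535.44 and 21.56 counts in untreated control replicate 1. Some reads were thus divided between these 2 genes. Med11 stood at 10.8 to 16.8 CPM and Zmynd15 at 0.556 to 4.02 CPM over the 12 libraries, below Cxcl16 in every condition.

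Cxcl14, a chemokine whose main receptor is debated and which attracts monocytes and dendritic cell precursors, moved the other way. Its level was 28.2, 22.7 and 31.0 CPM in the untreated control, 29.7, 27.4 and 29.0 CPM with eGFP supernatant, 8.72, 9.73 and 10.0 CPM in Ifnb1eGFP supernatant and 12.02, 9.90 and 10.4 CPM with rIFNβ. The highest library with IFNβ was thus well under the lowest without. Cxcl14 was 3.02-fold lower with Ifnb1eGFP than with eGFP supernatant (log2 fold change -1.59 ± 0.11, adjusted p = 3.44e-07) and 2.54-fold lower with rIFNβ than in the untreated control (-1.34 ± 0.11, adjusted p = 1.24e-06).

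The ligands of Cxcr2 did not move as a group. Cxcl5 was at 0.350, 0.0878 and 0.449 CPM in the untreated control, 0.253, 0.122 and 0.326 CPM with eGFP supernatant, 0.986, 1.24 and 0.999 CPM in Ifnb1eGFP supernatant and 0.593, 0.630 and 0.480 CPM with rIFNβ. The 3 ranges stepped upwards from no IFNβ through rIFNβ to Ifnb1eGFP supernatant without overlap. Cxcl5 rose 4.57-fold between the supernatants (log2 fold change 2.19 ± 0.43, adjusted p = 0.00109), while with rIFNβ its log2 fold change of 0.91 ± 0.44 did not pass (adjusted p = 0.102). The difference between these 2 effects, 1.28 with a 95% interval from -0.09 to 2.65, did not pass either (adjusted p = 0.926). Without untreated control replicate 3 the change with rIFNβ was called (log2 fold change 1.39, adjusted p = 0.0414). Cxcl5 overlaps the lncRNA gene Gm72413 on the opposite strand, which was not analysed here.

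Cxcl1 was at 0.318, 0.117 and 0.355 CPM in the untreated control, 0.177, 0.0975 and 0.276 CPM with eGFP supernatant, 0.582, 0.372 and 0.413 CPM in Ifnb1eGFP supernatant and 0.326, 0.157 and 0.253 CPM with rIFNβ. The 3 libraries with Ifnb1eGFP supernatant stood above the other 9, but on few counts, 4 to 23 per library over all conditions. Cxcl1 rose 2.46-fold between the supernatants (log2 fold change 1.30 ± 0.45, adjusted p = 0.0296), a call lost in DESeq2 (adjusted p = 0.0541) and without any of 3 of the 6 libraries: eGFP supernatant replicate 1 (adjusted p = 0.0729), eGFP supernatant replicate 2 (0.109) and Ifnb1eGFP supernatant replicate 1 (0.109). With rIFNβ its log2 fold change was -0.14 ± 0.47 (adjusted p = 0.825).

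Cxcl2, the neighbour of Cxcl1, was at 0.827, 1.46 and 1.54 CPM in the untreated control, 0.960, 1.22 and 1.76 CPM with eGFP supernatant, 0.860, 0.646 and 1.06 CPM in Ifnb1eGFP supernatant and 0.801, 1.10 and 1.19 CPM with rIFNβ. All conditions overlapped. Neither the log2 fold change of -0.61 ± 0.30 between the supernatants (adjusted p = 0.111) nor that of -0.31 ± 0.30 with rIFNβ (adjusted p = 0.412) passed, with 95% intervals from -1.27 to 0.06 and from -0.97 to 0.35. With replicate numbers added to the edgeR model, the change between the supernatants was called (adjusted p = 0.0393). Cxcl3, like Cxcl2, had 83.3% of its values not whole. The decimals of the 2 genes made up whole numbers in each library, as with 25.8 and 4.2 counts in untreated control replicate 1. Some reads were thus divided between Cxcl2 and Cxcl3, and their levels are not independent. Cxcl3 held 1.03 to 8.16 counts in the untreated control, 0 to 6.18 with eGFP supernatant, 6.87 to 21.5 with Ifnb1eGFP supernatant and 5.62 to 12.5 with rIFNβ. It was not tested in the filtered fit. In the fit with no filter its log2 fold change was 1.97 between the supernatants (adjusted p = 0.0495) and 0.83 with rIFNβ (adjusted p = 0.507).

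**Figure D2:**
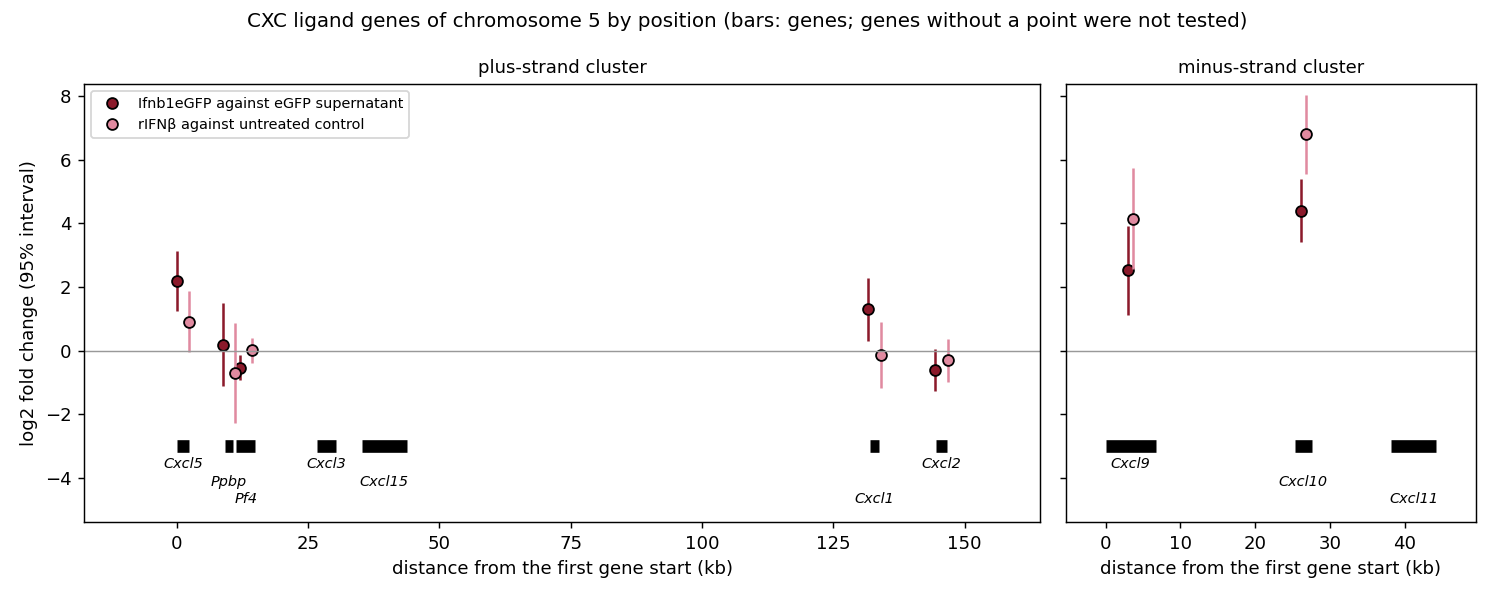
Log2 fold changes with 95% intervals of the CXC ligand genes of chromosome 5, drawn at their distance in kilobases from the first gene start of each cluster, for tumoral IFNβ (dark red) and recombinant IFNβ (pink). In the plus-strand cluster Cxcl5 and Cxcl1 were called higher with tumoral IFNβ (2.19 and 1.30). Pf4 was lower (-0.54) than with eGFP supernatant, the condition in which it stood highest. In the minus-strand cluster Cxcl10 was called higher in both comparisons, beside Cxcl9, which passed the filter only through the libraries with IFNβ.

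The map of chromosome 5 shows that neighbours did not share a direction between the supernatants in the plus-strand cluster. Pf4 encodes platelet factor 4 and was by CPM far above all listed members at 139 to 309 CPM. It was lower with Ifnb1eGFP than with eGFP supernatant (log2 fold change -0.54 ± 0.18, adjusted p = 0.0229) and at 0.01 ± 0.18 with rIFNβ (adjusted p = 0.971). Pf4 stood highest with eGFP supernatant, at 266 to 309 CPM. It was at 170 to 196 CPM in the untreated control, 149 to 209 with rIFNβ and 139 to 244 with Ifnb1eGFP supernatant. Ppbp, a further Cxcr2 ligand, was called in neither comparison. Of the other ligand genes outside the 10, Cxcl13 had no count, and Cxcl15 and Cxcl17 had at most 2 in a library.

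Cxcl12, the ligand that retains hematopoietic cells in the marrow and is made chiefly by stromal cells, was at 1.02, 0.498 and 0.591 CPM in the untreated control and at 0.707, 0.122 and 0.602 CPM with eGFP supernatant. It was at 2.96, 1.84 and 1.56 CPM in Ifnb1eGFP supernatant and at 1.57, 1.30 and 1.87 CPM with rIFNβ. The lowest library with IFNβ lay above the highest without. Cxcl12 rose 4.43-fold between the supernatants (log2 fold change 2.15 ± 0.46, adjusted p = 0.00219) and 2.27-fold with rIFNβ (1.18 ± 0.46, adjusted p = 0.0464). The call with rIFNβ was lost with RLE scaling (adjusted p = 0.0542) and without any of 5 of the 6 libraries, all but untreated control replicate 1 (adjusted p = 0.0572 to 0.142).

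Stromal and endothelial markers were examined beside Cxcl12. Their 9 genes were all tested and summed to 37.8 to 87.1 CPM in the untreated control, 32.6 to 72.8 with eGFP supernatant, 60.4 to 84.8 with Ifnb1eGFP supernatant and 53.7 to 80.6 with rIFNβ, ranges that overlap, and none was at 0. Between the supernatants 4 of the 9 rose, among them Dcn (log2 fold change 1.80), Pdgfra (1.67) and Pecam1 (1.49), and Col1a1 fell (-1.03). With rIFNβ 3 of the 9 rose and 2 fell. The 5 of 9 called in each comparison stand beside 55.1% and 55.3% of all genes. The sum was lowest in replicate 2 of each of the 4 conditions, as were Cxcl1 and Cxcl3, while Cxcl12 was lowest there in 3 of 4 conditions. The part of these cells in the Cxcl12, Cxcl1 and Cxcl3 results was not tested.

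**Figure D3:**
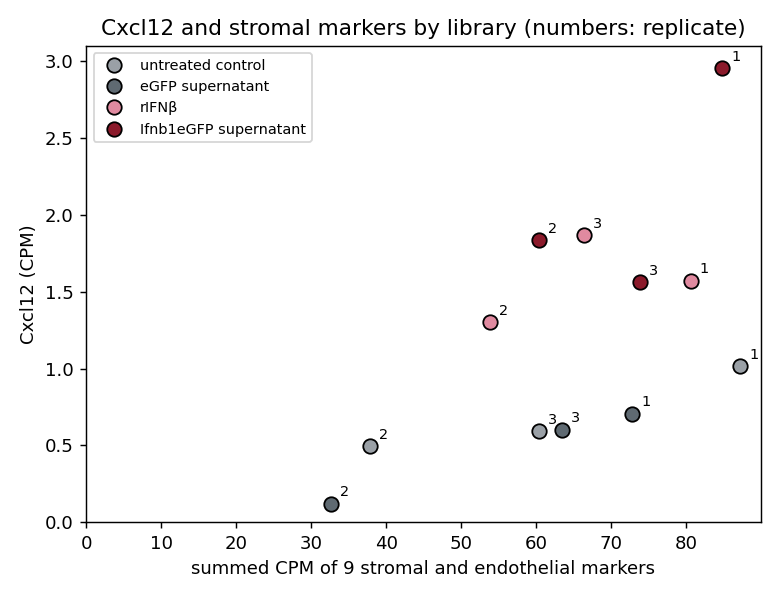
Cxcl12 (CPM, vertical axis) against the summed CPM of 9 stromal and endothelial markers (horizontal axis) in the 12 libraries, numbered by replicate and colored by condition. The 6 libraries with IFNβ lie between 1.30 and 2.96 CPM of Cxcl12 and the 6 without between 0.122 and 1.02, over marker sums from 32.6 to 87.1 CPM.

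The medium of the control tumor cells alone was examined by setting eGFP supernatant against untreated control, which share no IFNβ. None of the 8 genes was called in edgeR without replicate numbers in the model, where 0.299% of all genes were (45 of 15033, and 1203 at an unadjusted p under 0.05). Cxcl16 came nearest, at 1.31-fold with no overlap between its libraries, as for 15.5% of all genes (log2 fold change 0.39 ± 0.10, 95% interval from 0.16 to 0.62, unadjusted p = 0.00312, adjusted p = 0.221). It was called in DESeq2 (adjusted p = 0.0469) and in edgeR with the replicate numbers added to the model (adjusted p = 0.0276). Cxcl10 was the only other member whose unadjusted edgeR p was under 0.05 (adjusted p = 0.566), with a log2 fold change of 1.96 ± 0.81 that was 0.56 without eGFP supernatant replicate 2. For Cxcl14 the 95% interval of the log2 fold change ran from -0.16 to 0.31.

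The sources of IFNβ were set against each other at the same concentration. Between Ifnb1eGFP supernatant and rIFNβ again none of the 8 genes was called in edgeR without replicate numbers in the model, against 0.160% of all genes (24 of 15033, and 1288 at an unadjusted p under 0.05), and DESeq2 called none of them. Without Ifnb1eGFP supernatant replicate 2, 1113 genes were called, still none of the 8. With the replicate numbers added to the model, edgeR called Cxcl16 (adjusted p = 0.0403). Cxcl16 was 1.29-fold higher with the supernatant and its libraries did not overlap (log2 fold change 0.37 ± 0.10, 95% interval from 0.16 to 0.59, unadjusted p = 0.00302, adjusted p = 0.340). Cxcl5 was 1.89-fold higher, also with no overlap (log2 fold change 0.92 ± 0.39, 95% interval from 0.07 to 1.77, unadjusted p = 0.0369, adjusted p = 0.580). Groups that do not overlap were found for 12.8% of all genes in this comparison. Cxcl10, Cxcl9 and Cxcl14 had log2 fold changes of -0.44, -0.58 and -0.18, with intervals that include 0. In the interaction of IFNβ and supernatant none of the 8 genes, and 0% of all genes, was called by edgeR, while 661 of 15033 had an unadjusted p under 0.05 and DESeq2 called 6 genes, none of them a member. Cxcl10 alone of the 8 had an unadjusted edgeR p under 0.05 (interaction of -2.40, 95% interval from -4.32 to -0.48, adjusted p = 0.926), and it was at -1.003 without eGFP supernatant replicate 2.

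**Figure D4:**
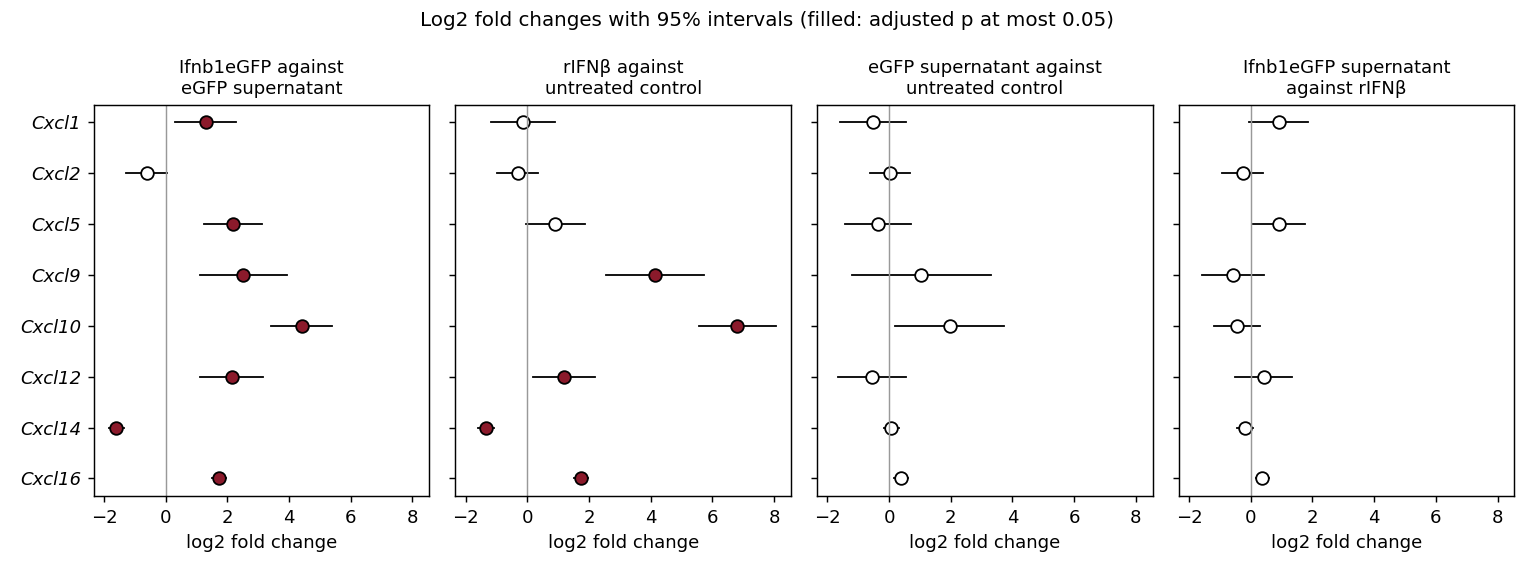
Log2 fold changes (horizontal axis) with 95% intervals of the 8 tested CXC chemokine genes in the 4 comparisons, filled where the adjusted p was at most 0.05 in the fit without replicate numbers. Filled points stand in the panels with IFNβ on 1 side, 7 for tumoral and 5 for recombinant IFNβ with Cxcl9 counted, and there is none in the panels for control supernatant or for the source of IFNβ.

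Comparing genes with each other needs levels per length, so CPM was divided by the length of the canonical transcript in kilobases. In the untreated control Cxcl14 led with 9.33 ± 1.44 CPM per kb (SD, n = 3), then Cxcl16 with 6.11 ± 0.95 and Cxcl2 with 1.15 ± 0.35, and the ranges of these 3 did not overlap. The others were at 0.275 CPM per kb or less, where Cxcl1, Cxcl5, Cxcl10, Cxcl12 and Cxcl3 each overlapped the next in this order. With eGFP supernatant the order began alike, Cxcl14 at 9.82 ± 0.41, Cxcl16 at 8.04 ± 0.81 and Cxcl2 at 1.18 ± 0.37 CPM per kb, and Cxcl2 overlapped Cxcl10 through replicate 2. With Ifnb1eGFP supernatant the order was Cxcl16 at 26.4 ± 1.78, Cxcl10 at 15.5 ± 3.69 and Cxcl14 at 3.25 ± 0.23 CPM per kb, without overlap. With rIFNβ Cxcl10 at 21.1 ± 4.53 and Cxcl16 at 20.4 ± 0.66 CPM per kb overlapped and were followed by Cxcl14 at 3.69 ± 0.38.

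Summed over the 10 genes, the level was 17.5 ± 2.63 CPM per kb in the untreated control, 20.3 ± 1.04 with eGFP supernatant, 47.8 ± 2.54 with Ifnb1eGFP supernatant and 47.4 ± 4.34 with rIFNβ. Pf4, a CXC ligand outside the 10, is not in this sum and exceeded it in each condition. In the same order Pf4 was at 123, 193, 132 and 124 CPM per kb. The sum and the shares below thus describe the 10 genes and not all CXC ligand transcripts. The share of Cxcl14 in the sum of the 10 went from 53.4% and 48.5% without IFNβ to 6.82% with Ifnb1eGFP supernatant and 7.77% with rIFNβ, and that of Cxcl10 from 1.10% and 3.63% to 32.3% and 44.3%. Cxcl16 made up 34.9% and 39.6% without IFNβ and 55.3% and 43.3% with it. The ratio of Cxcl16 to Cxcl14 per kb was 0.656 ± 0.059 in the untreated control, 0.819 ± 0.072 with eGFP supernatant, 8.13 ± 0.30 with Ifnb1eGFP supernatant and 5.57 ± 0.65 with rIFNβ, and the 4 ranges did not overlap. With the length of all annotated exons, a choice added after the data were seen, these ratios were 0.449, 0.560, 5.56 and 3.82, in the same order.

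**Figure D5:**
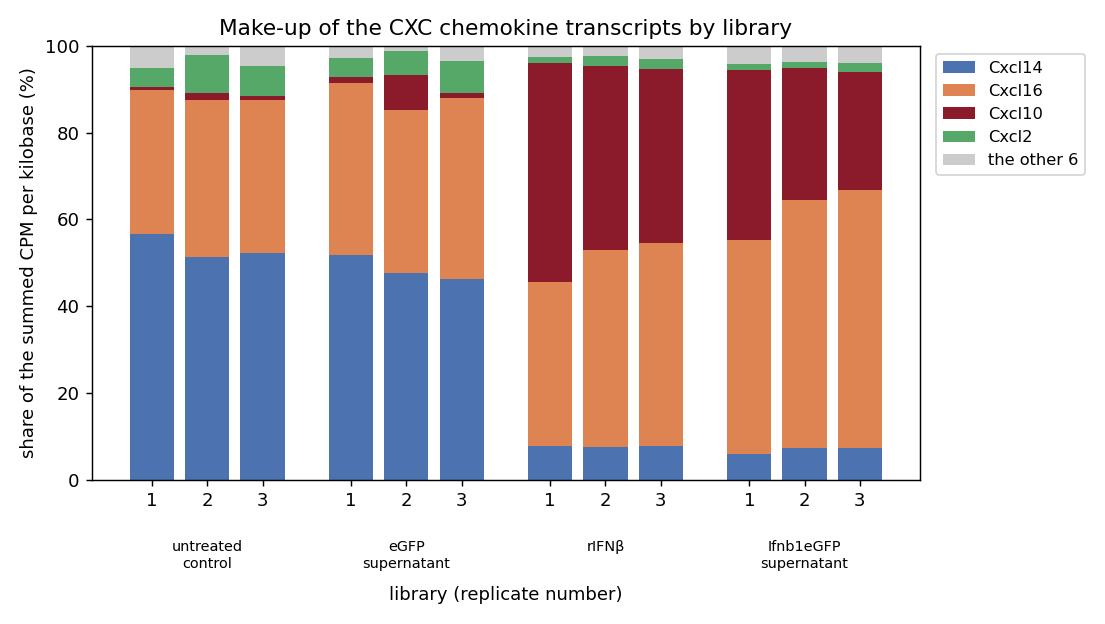
Share of each gene in the summed CPM per kilobase of the 10 CXC chemokines (percent, vertical axis), 1 bar per library. Pf4, a more abundant CXC ligand outside the 10, is not included. Cxcl14 makes up 46.3% to 56.6% in the 6 libraries without IFNβ and 5.91% to 7.87% in the 6 with it, where Cxcl10 makes up 27.3% to 50.3%.

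The receptors of these ligands were measured in the same cells, from a list of 8. Cxcr4 rose by 0.81 on the log2 scale in both comparisons (adjusted p = 4.53e-07 and 5.21e-07). Its mean was 18.6 CPM in the untreated control, 33.4 with eGFP supernatant, 32.7 with rIFNβ and 58.5 with Ifnb1eGFP supernatant. Control supernatant without IFNβ thus also stood higher, with libraries at 31.5 to 35.3 CPM against 17.1 to 19.7 in the untreated control. Cxcr4 was called higher in that comparison too, the only 1 of the 4 tested receptors called there, where 0.299% of all genes were. Cxcr2, the neutrophil receptor for the ligands with the glutamate-leucine-arginine motif, stood at 0.509 to 0.778 CPM in the 6 libraries without IFNβ and at 0.0253 to 0.0652 CPM in the 6 with it. That is at least 8.56-fold lower between the supernatants and at least 8.04-fold lower with rIFNβ, with the IFNβ groups set at 3 counts per library. Cxcr2 passed the filter only through the libraries without IFNβ, so it had to differ and these values are a description. The reverse holds for Ackr3, the scavenging receptor of Cxcl12, which passed only through the libraries with IFNβ, with 2 to 10 counts per library without IFNβ and 12 to 45 with it. Cxcr3 was called in neither, at -0.00 ± 0.18 and 0.28 ± 0.18. Cxcr1, Cxcr5, Cxcr6 and Ackr1 were not tested, at low counts.

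Genes that act upstream or on the products of these ligands were counted from lists, to be read beside the shares of all genes called: 30.1% higher and 25% lower between the supernatants, and 30.7% and 24.6% with rIFNβ. Of 12 genes of the type I interferon receptor and its signalling, all tested, 8 rose and 1 fell between the supernatants and 9 rose and 2 fell with rIFNβ, with Irf1, an activator of Cxcr3 ligand genes, at 1.71 and 1.69 and Ifnar1 at -0.55 and -0.60 on the log2 scale. Of 10 NF-kB subunits and inhibitors, 4 rose and 1 fell between the supernatants, 5 of 10 beside 55.1% of all genes called in either direction, and 6 rose and 1 fell with rIFNβ. The largest changes on that list were those of Nfkbiz, an atypical inhibitor that also promotes transcription of selected targets, at 1.37 and 1.53, and of Tnfaip3, a ubiquitin-editing inhibitor, at -1.59 and -1.34, whereas the subunit gene Nfkb1 was at 0.28 and 0.33. Among 6 factors of chemokine mRNA decay, 3 rose in each comparison, led by Zfp36l1 at 1.57 and 1.94, and Zc3h12a fell by 0.37 between the supernatants only, a difference between comparisons that was not called in the interaction. Of 6 proteases and sheddases, 4 were tested and 3 fell in both comparisons: Mmp9, which cleaves several CXC ligands, at -5.09 and -5.32, Mmp12 at -3.08 and -3.23, and Adam17 at -0.19 and -0.27, while Adam10, a sheddase of Cxcl16, stood at 0.04 and -0.02. Of 7 inducers, 3 were tested, of which Il1b rose in both comparisons (0.95 and 1.34) and Il1a with rIFNβ (0.51).

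The genes whose log2 CPM ran most nearly parallel to each member over the 12 libraries were named by Pearson's r, as a description, since the libraries share their conditions. For Cxcl16 these were Pde3b (0.997), Rassf2 and Havcr2, and for Cxcl14 they were Penk (0.995), Tifab and Uchl1. For Cxcl10 the first was Or2v1 (0.996), and for Cxcl9 it was Gbp2b (0.970). As many as 2364 genes passed an r of 0.9 with Cxcl16, 2329 with Cxcl10, 1918 with Cxcl14 and 1118 with Cxcl9, so these names are the top of long lists. Cxcl12 was nearest to Gm17705 (0.963), Vcan (0.961) and Kirrel1 (60 genes over 0.9), Cxcl5 to Niban3 (0.953, 9 genes over 0.9), Cxcl2 to Lsp1 (0.933, 6 genes) and Cxcl1 to Clmp (0.910, 2 genes).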

How the data were processed

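Total RNA (600 ng) was prepared by the authors with the TruSeq Stranded Total RNA Kit and aligned with RSEM (v1.3.3) to a genome named GRCm39 mm10, which joins 2 build names. The deposited values were the authors' expected counts per Ensembl gene, not normalized. The strand setting of the counting is not given in the sources used here. Some reads were divided between Cxcl16 and Zmynd15, on opposite strands, and reads of other such overlaps may not be separated. Here the expected counts were rounded, and edgeR 4.0.16 (R 4.3.3) was used. The filter filterByExpr left 15033 of 56748 genes, library totals were corrected by TMM, and all 12 libraries entered the same quasi-likelihood model, from which each contrast was tested with p-values adjusted by Benjamini-Hochberg over the genes left. The SE was the log2 fold change divided by the root of F. A stricter call used the study's thresholds (log2 fold change of 2 in size, adjusted p of 0.01). CPM used TMM-scaled library totals, and log2 CPM a prior count of 2. Floors of 3 counts cover counting error only.

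The 10 members and all lists were chosen with earlier results of these data known. Named genes were all members, plus from each other list those called with the largest changes or needed to describe it, and the top genes by Pearson's r. Alternatives were DESeq2 1.42.0, RLE factors, no filter, a replicate block, only the compared conditions, and each library left out. The script was tested on simulated data. Lengths and positions came from GENCODE on GRCm39, promoters from RefSeq (GRCm38.p6).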

Additional observations from a re-analysis of the deposited data

How the results depend on the processing

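Of 192 gene values of the 8 tested chemokines under other settings, 186 kept direction and call, and of 288 values with 1 library left out, 268 did. Most of these values are from comparisons in which no chemokine was called, so they measure the stability of calls poorly. Cxcl9, whose difference the filter fixed, is also among them. With 1 library left out, 8 calls were lost, all of Cxcl1 between the supernatants or of Cxcl12 with rIFNβ. Between the supernatants 4 genes passed the stricter thresholds (Cxcl5, Cxcl9, Cxcl10 and Cxcl12), 2 when the other conditions were left out of the fit, and 1 to 4 with 1 library left out: 1 without eGFP supernatant replicate 2 and 2 without Ifnb1eGFP supernatant replicate 1. With rIFNβ 2 passed (Cxcl9 and Cxcl10). For eGFP supernatant against untreated control, 1 chemokine (Cxcl16) was called by DESeq2 (log2 fold change 0.40, adjusted p = 0.0469) instead of 0. With 1 library left out, direction turned for changes near 0 that were never called: Cxcl1 with rIFNβ (-0.48 to 0.16), and between eGFP supernatant and control Cxcl2 (-0.24 to 0.21), Cxcl5 (-0.78 to 0.11) and Cxcl14 (-0.044 to 0.17), and Cxcl16 in the interaction (-0.16 to 0.062). Cxcl5 with rIFNβ was called without untreated control replicate 3 (1.39, adjusted p = 0.0414).

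Whether replicate numbers pair the libraries was checked by the correlation of their deviations from the condition means: 13 of 18 same-numbered pairs were over 0.1 (0.06 to 0.25), so the numbers were not taken as pairs, although 12 of 12 libraries correlated best with their own number. With the replicate block, 1 chemokine, Cxcl16, was called for eGFP supernatant against control (0.40, adjusted p = 0.0276) and 1, again Cxcl16, for Ifnb1eGFP supernatant against rIFNβ (0.37, adjusted p = 0.0403), and Cxcl2 between the supernatants (-0.59, adjusted p = 0.0393). The block changed no other chemokine call.

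Counts over all genes were least stable where few were called. For eGFP supernatant against control, 45 became 188 by DESeq2, 75 with no filter, 122 with the block, 21 without the other conditions and 16 to 32 with 1 library left out. For Ifnb1eGFP supernatant against rIFNβ, 24 became 107, 41, 48, 2 and 4 to 1113 (1113 without Ifnb1eGFP supernatant replicate 2). The interaction went from 0 to 6 by DESeq2 and 1 with no filter. The causes were not tested. Depth limits Cxcl3, Cxcl9 and Cxcl11, at 0 to 21.5 counts per library, most.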
